A study of Mus musculus with 18 samples.

Results

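The antioxidant and redox enzyme genes are the genes that make, use and regulate the thiol and peroxide chemistry of a cell. They were chosen by gene symbol alone: superoxide dismutases and catalase, glutathione peroxidases, peroxiredoxins and sulfiredoxin, the thioredoxin and glutaredoxin system, the enzymes of glutathione synthesis and reduction, glutathione S-transferases, quinone reductases and heme oxygenases with the Nrf2 axis, and NADPH oxidases. The rule gave 67 genes of the 53715 in the count table, and 4 pseudogenes with matching names were left out. The rule itself uses no measured value, and all 67 were found in the annotation as protein-coding genes.

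The data are 18 mouse libraries in 6 groups of 3, all of the strain given as C57Bl/6j x CBA/J. Oocytes of primordial and of primary follicles were cut by laser capture microdissection (LCM) from stained, fixed and paraffin-embedded ovarian sections, and the RNA of several cuts was pooled. The *in vivo* LCM groups came from uncultured ovaries of 14-day-old mice, and the *in vitro* LCM groups from ovaries of 7-day-old mice cultured for 7 days with fetal bovine serum, follicle-stimulating hormone (FSH) and an insulin, transferrin and selenium supplement. MII oocytes are oocytes arrested at metaphase of the second meiotic division, and each MII library was made from 10 of them. The *in vivo* MII oocytes came from adult mice stimulated with gonadotropins. The *in vitro* MII oocytes came from follicles taken out of cultured ovaries, grown a further 12 days in alginate with serum, FSH and the same supplement and ovulated with human chorionic gonadotropin. LCM and MII libraries were made with different kits (TruSeq RNA Access after whole transcriptome amplification, and Smart-seq II), so stage and kit cannot be told apart between them. Their levels are set side by side without a test.

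Superoxide dismutases turn superoxide into hydrogen peroxide, and catalase, glutathione peroxidases and peroxiredoxins remove the peroxide. Glutathione and thioredoxin supply the electrons and are themselves reduced at the cost of NADPH, while NADPH oxidases make superoxide. The transcription factor Nrf2 (*Nfe2l2*), held back by *Keap1*, drives many of these genes. In the ovary glutathione is known as the main thiol store of the growing oocyte, which uses it after fertilization when the sperm chromatin is unpacked.

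The glutathione peroxidases differ from each other in the residue that attacks the peroxide, and members of both kinds are described for the MII stage below. In some it is selenocysteine, which is written into the messenger as an in-frame TGA that would otherwise be a stop. In the others it is cysteine, written as TGC or TGT. For each of the 8 genes, 27 bases of the coding strand are shown 5′ to 3′, read from the GENCODE M21 transcripts (mouse, GRCm38), with the codon of that residue in capitals.
Gpx1: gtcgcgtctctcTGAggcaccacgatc
Gpx2: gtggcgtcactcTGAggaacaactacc
Gpx3: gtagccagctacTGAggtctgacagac
Gpx4: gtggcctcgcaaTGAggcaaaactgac
Gpx5: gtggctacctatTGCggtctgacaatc
Gpx6: gtggcatccttcTGTggcctgacagct
Gpx7: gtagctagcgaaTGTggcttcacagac
Gpx8: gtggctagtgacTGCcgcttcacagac
*Gpx1*, *Gpx2*, *Gpx3* and *Gpx4* carry TGA, and *Gpx5*, *Gpx6*, *Gpx7* and *Gpx8* a cysteine codon. The capital codon is number 47 in *Gpx1* and number 73 in *Gpx3*, *Gpx5* and *Gpx6*, counted from the start codon of the longest complete coding sequence. Among all 67 genes, 7 have an in-frame TGA, the other 3 being the thioredoxin reductases *Txnrd1*, *Txnrd2* and *Txnrd3*, where it is the last codon but one.

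Depth differed by kit, with total counts of 15149564 to 29205503 per LCM library and 7334817 to 9978830 per MII library. The limit that a count of 0 allows was set at 3 reads (the floor), or 0.103 to 0.198 CPM (reads scaled to the library total) for LCM and 0.301 to 0.409 CPM for MII libraries, and it covers counting error only. The LCM libraries had 20 to 49 of the 67 genes above the floor and only 6 of them in all 12 libraries (*Gstm1*, *Gstm2*, *Txnip*, *Prdx1*, *Sod1* and *Gpx4*). The MII libraries had 36 to 46 above the floor, 30 of them in all 6. In the 12 LCM libraries a gene often had many reads in one library and none in the next. Taking genes that reached 100 reads in some library of a group, the share at or under the floor in another of its libraries was 62.5% for the redox genes in primordial *in vivo*, 66.7% in primordial *in vitro*, 66.7% in primary *in vivo* and 20.6% in primary *in vitro*. Over all genes of the TPM table the same shares were 45%, 51.4%, 60.1% and 29%. In the MII groups it was 0 of 19 redox genes *in vivo* and 0 of 22 *in vitro*, beside 0.868% and 0.434% of all genes. The labels do not say whether libraries of a group came from separate animals, so p-values measure the spread between these libraries, which may be technical.

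**Figure D1:**
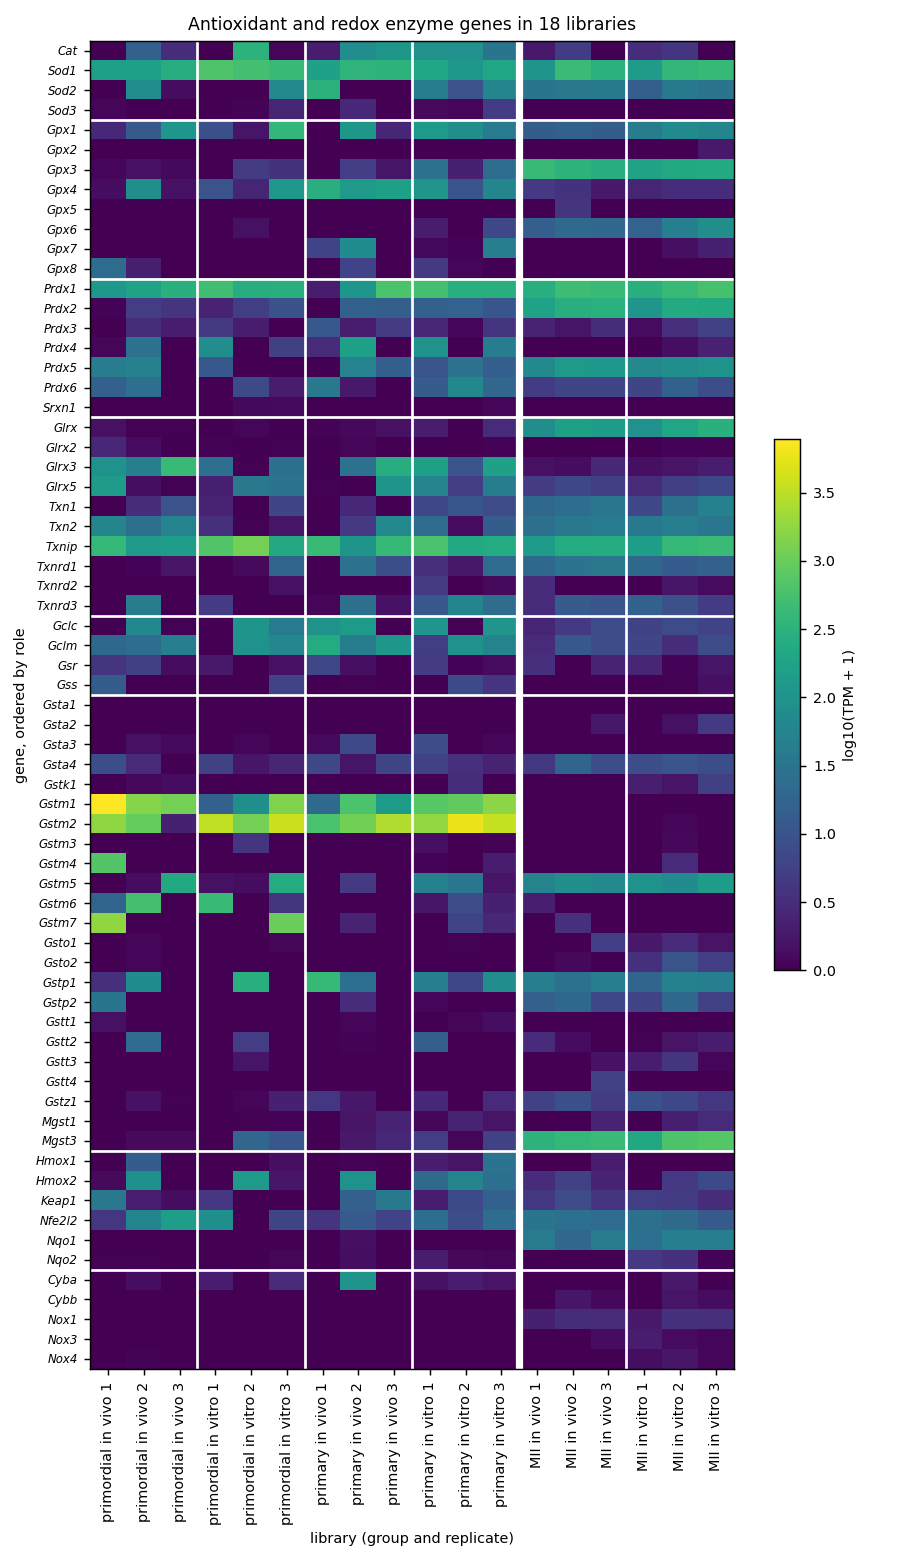
Level of each of the 67 genes (rows, ordered by role) in the 18 libraries (columns) as log10(TPM + 1), with thin white lines between role classes and between groups and a thick one between LCM and MII libraries. *Gstm1* and *Gstm2* are high in nearly all LCM libraries and dark in the 6 MII libraries, whereas *Mgst3*, *Gpx3*, *Prdx2* and *Glrx* are high in the MII libraries.

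Levels between genes were compared in TPM, which accounts for gene length. In the LCM libraries the glutathione S-transferases, which join glutathione to reactive compounds, took 36.8% to 91.6% of the summed TPM of the 67 genes. Their share was under 50% in 3 of the 12 libraries (primordial *in vivo* replicate 3, primordial *in vitro* replicate 2 and primary *in vivo* replicate 1). *Gstm2* had a median of 1785 TPM over the LCM libraries (range 1.21 to 5896) and *Gstm1* a median of 819 TPM (range 15 to 7793). In the MII libraries *Gstm1* had 0 reads in all 6, against 166835 reads in the LCM libraries together, and *Gstm2* had 1 read in 6 libraries against 302328. The highest redox genes of the MII libraries were *Mgst3*, a microsomal glutathione transferase (median 420 TPM, range 218 to 724), *Prdx1* (median 417 TPM), *Sod1* (median 339 TPM), *Gpx3* (median 254 TPM), *Txnip*, which binds and inhibits thioredoxin (median 251 TPM), and *Prdx2* (median 233 TPM). *Mgst3*, singled out after its values were seen, had a median of 0.566 TPM in the LCM libraries, *Gpx3* 0.907 TPM, *Prdx2* 6.27 TPM and the glutaredoxin *Glrx* 0.103 TPM against 151 TPM in the MII libraries. *Prdx1*, *Sod1* and *Txnip* were high in both kinds of library, with LCM medians of 272, 233 and 321 TPM. On the other side, *Glrx3* had a median of 37.6 TPM in the LCM and 0.564 TPM in the MII libraries, *Gpx4* 71.3 and 2.14 TPM, and *Gclm*, the regulatory subunit of the enzyme that starts glutathione synthesis, 50.4 and 6.19 TPM.

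The peroxiredoxins with sulfiredoxin held the largest class share in the MII libraries, 24.2% to 31.6%, apart from *in vitro* replicates 2 and 3, where the glutathione S-transferases held 26.0% and 26.2%. The glutathione peroxidases held 10.7% to 23.9% of the MII signal. *Gsta1* had no read in any of the 18 libraries. Among the NADPH oxidase genes *Nox1* had 12 to 30 reads in every MII library and none in the LCM libraries, whereas *Cyba*, the membrane subunit of the oxidase, had 779 of its 817 LCM reads in primary *in vivo* replicate 2. *Cybb*, the catalytic subunit of phagocytes, had no LCM read and 0, 13 and 4 reads in the *in vivo* and 0, 14 and 7 in the *in vitro* MII libraries.

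**Figure D2:**
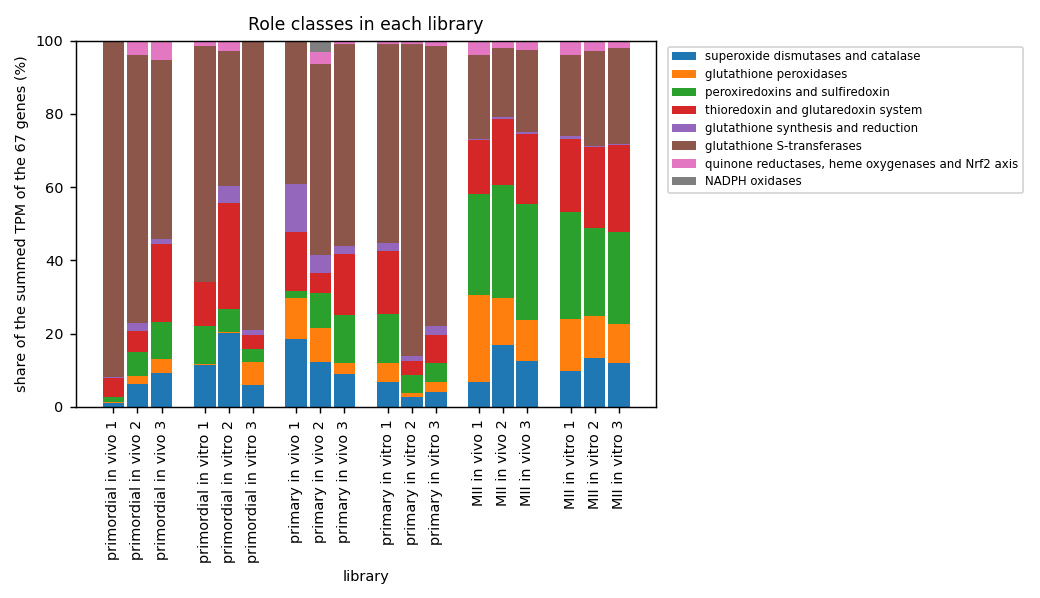
Share of the summed TPM of the 67 genes that each of 8 role classes takes in each library (stacked bars, % of the sum; bars add up to 100). Glutathione S-transferases take between 36.8% and 91.6% in the LCM libraries and between 18.8% and 26.2% in the MII libraries.

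Markers of ovarian cell types stood beside these levels. All 12 oocyte markers were in the table, with a summed level of 335 to 1950 TPM on the LCM side and 12206 to 29131 TPM on the MII side. The 10 granulosa markers summed to 58.8 to 2222 TPM in the LCM libraries (*Fshr* had no read in any LCM group) and to 24.2 to 72.7 TPM in the MII libraries. *Foxl2* and *Amhr2* had no read in the MII libraries, whereas *Cyp19a1*, the aromatase of granulosa cells, was at 17.5 to 64.7 TPM there and had no read in 11 of the 12 LCM libraries, and *Fshr* was found in 4 MII libraries at up to 6.42 TPM. The 9 theca and stroma markers summed to 453 to 11417 TPM in the LCM and 1.30 to 5.02 TPM in the MII libraries, where *Col1a2*, *Col3a1*, *Lum* and *Cyp17a1* had no read. Their sum was above that of the oocyte markers in every LCM library except primordial *in vitro* replicate 2 and primary *in vivo* replicates 1 and 3. The 3 endothelium markers summed to 0 to 69.7 TPM in the LCM and 36.1 to 97.5 TPM in the MII libraries, the latter mainly from *Pecam1* (35.2 to 95.1 TPM), while *Cdh5* had no MII read. The part of these cells in the LCM levels of *Gstm1* and *Gstm2* was not tested. In bulk RNA of this kind, fewer cells of a type and less RNA per cell cannot be told apart.

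The question at the MII stage was how oocytes grown and matured in culture differ from ovulated oocytes. None of the 52 redox genes that could be tested was called (edgeR quasi-likelihood test, with a fold of at least 2 and an adjusted p under 0.05), where the call rate over all 17144 genes tested was 0.35%. At an unadjusted p under 0.05, 6 redox genes were higher *in vitro* and 0 lower, against 5.99% of all genes higher and 4.18% lower (10.2% in either direction). The ranges of the groups were separate in 9 genes, 7 higher and 2 lower *in vitro*, against 9.37% and 6.81% of all genes (16.2% in either direction). DESeq2 called 3 of the 52 (2.05% of all genes by that tool) and limma-voom 2, beside 463 of all 17144 genes. For 11 of the 52 DESeq2 gave no adjusted p, which counted as not called. The median log2 fold change of the 52 was 0.17 (0.14 with genes absent from a group set at their limit), against 0.04 for all genes tested.

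By role, 2 of the 5 glutathione peroxidases tested in MII oocytes were higher *in vitro* at an unadjusted p under 0.05 (*Gpx1* and *Gpx6*), 2 of the 16 glutathione S-transferases (*Gsto2* and *Gstk1*), 1 of the 5 genes of the quinone reductase, heme oxygenase and Nrf2 class (*Nqo2*) and 1 of the 4 NADPH oxidase genes (*Nox4*). None of the 3 dismutase and catalase genes, the 6 peroxiredoxin genes, the 9 thioredoxin and glutaredoxin genes or the 4 genes of glutathione synthesis and reduction reached it.

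Among the glutathione peroxidases, *Gpx1*, the main cytosolic enzyme, lies at chr9:108338903-108340343 on the plus strand (GRCm38). The *in vivo* libraries held 67, 64 and 64 reads of it and the *in vitro* libraries 254, 371 and 277. All *in vitro* libraries were above all *in vivo* libraries, at 31.9 ± 2.89 CPM against 7.43 ± 0.743 CPM (SD, n = 3). The log2 fold change was 2.10 (SE 0.44) with an adjusted p of 0.0773 by edgeR, which missed the threshold, and DESeq2 gave an adjusted p of 0.000263. Over all alternatives the log2 fold change stayed between 1.97 and 2.21. None of the 50-base stretches of its transcripts occurs in another gene, and it overlaps no other gene.

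*Gpx6*, which has the cysteine codon, had 66, 86 and 84 reads *in vivo* and 91, 229 and 367 *in vitro*. The groups did not overlap, but replicate 1 of the *in vitro* group lay close to the *in vivo* libraries (log2 fold change 1.45, SE 0.55, edgeR adjusted p = 0.416, and 0.84 without *in vitro* replicate 3). *Gpx3*, the secreted enzyme, was the most abundant member of the family with 2839, 1773 and 1636 reads *in vivo* and 1320, 1493 and 1421 *in vitro*. Each *in vitro* library was below each *in vivo* library, with a log2 fold change of -0.67 (SE 0.34, edgeR adjusted p = 0.504). *Gpx4*, the enzyme that reduces lipid peroxides, had 5 to 21 reads *in vivo* and 11 to 13 *in vitro*. Since 34.7% of the 50-base stretches of *Gpx4* occur in other genes, chiefly the pseudogene *Gpx4-ps2*, its counts are uncertain.

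*Nqo2*, a quinone reductase that uses dihydronicotinamide riboside, had 0 reads in each *in vivo* library and 58, 36 and 1 reads *in vitro*. It was at least 9.97-fold higher *in vitro* (against the floor of 3 reads per library), with an adjusted p of 0.229 by edgeR and 0.0130 by DESeq2, and *in vitro* replicate 3 was itself under the floor. *Nqo2* overlaps *Serpinb6a* on the opposite strand, which had 10, 0 and 35 reads *in vivo* and 28, 16 and 29 *in vitro*. *Nqo1*, the NADPH-dependent quinone reductase, was abundant in both groups, with 222, 86 and 203 reads *in vivo* and 168, 260 and 241 *in vitro*, and the groups overlapped.

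*Gsto2*, an omega class transferase that also reduces dehydroascorbate, had 0, 1 and 0 reads *in vivo* and 16, 51 and 21 *in vitro*. The ratio of the pooled reads was 82.6 (95% exact counting interval 14.5 to 3300), with an adjusted p of 0.240 by edgeR and 0.0228 by DESeq2. This interval covers counting error only and leaves out the spread between libraries. The gene overlaps *Cfap43* on the opposite strand, which moved with it: *Cfap43* had 5, 11 and 1 reads *in vivo* and 58, 91 and 27 *in vitro*. None of the 50-base stretches of *Gsto2* occurs in another gene. In the LCM libraries, made with another kit, *Gsto2* had 2 reads in all and *Cfap43* up to 394 in a library. The part of reads from *Cfap43* in the counts of *Gsto2* was not tested. *Gstk1*, a mitochondrial and peroxisomal transferase, had no read *in vivo* and 7, 3 and 21 *in vitro* (at least 3.36-fold higher, edgeR adjusted p = 0.432).

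*Nox4*, an NADPH oxidase that mainly releases hydrogen peroxide, had no read in the *in vivo* libraries and 15, 22 and 5 reads in the *in vitro* libraries. Every *in vitro* library was above the floor, at least 4.26-fold higher over the group (edgeR adjusted p = 0.389, DESeq2 adjusted p = 0.136). Its level *in vitro* was low, 1.46 ± 0.797 CPM (SD, n = 3). *Nox1* had 14, 22 and 21 reads *in vivo* and 12, 30 and 25 *in vitro*, and the groups overlapped.

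*Prdx4*, the peroxiredoxin of the endoplasmic reticulum, had 0 reads *in vivo* and 0, 3 and 9 *in vitro*, so only 1 library was above the floor (edgeR adjusted p = 0.509). *Gstm4* had 0 reads *in vivo* and 0, 12 and 0 *in vitro* (edgeR adjusted p = 0.519), and *Gstm6* 8, 0 and 0 *in vivo* and none *in vitro*, too few to be tested. In the other direction 3 tested genes had no read *in vitro* and all their *in vivo* reads in 1 library: *Gpx5* had 0, 15 and 0, *Gstt4*, a theta class transferase, 0, 0 and 16, and *Gstm7* 0, 11 and 0 (edgeR adjusted p = 0.509, 0.509 and 0.512). The abundant peroxiredoxins differed little: *Prdx1* had 446 ± 73.3 CPM *in vivo* and 497 ± 114 CPM *in vitro* (SD, n = 3; log2 fold change 0.16, SE 0.32), and *Prdx2* 286 ± 53.0 and 218 ± 51.0 CPM (-0.39, SE 0.33). *Prdx6*, which also has phospholipase activity, had 67, 79 and 91 reads *in vivo* and 113, 255 and 116 *in vitro*, without overlap (log2 fold change 0.90, SE 0.51, edgeR adjusted p = 0.515). The mitochondrial dismutase *Sod2* was lower in each *in vitro* library after scaling, at 38.4 ± 10.5 CPM against 49.4 ± 1.11 CPM (SD, n = 3; log2 fold change -0.36, SE 0.37, edgeR adjusted p = 0.780). *Sod1*, the cytosolic dismutase, had 66.6 ± 38.0 CPM *in vivo* and 73.0 ± 25.4 CPM *in vitro* (log2 fold change 0.13, SE 0.46). *Glrx*, a cytosolic glutaredoxin, had 261 ± 60.1 and 406 ± 181 CPM (0.64, SE 0.38), and *Txnip* 245 ± 55.6 and 381 ± 138 CPM (0.63, SE 0.36). For *Txnip*, a gene on the opposite strand, *Gm15441*, had 225 to 288 reads *in vivo* and 433 to 1055 *in vitro*.

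The genes that make glutathione and regulate the response overlapped between the MII groups. *Gclc* had 21, 38 and 95 reads *in vivo* and 77, 93 and 63 *in vitro* (log2 fold change 0.55, SE 0.67), and *Gclm* 46, 201 and 158 and 149, 46 and 139 (-0.30, SE 0.65). *Gss*, glutathione synthetase, had no read *in vivo* and 0, 1 and 9 *in vitro*. *Nfe2l2* had 404, 290 and 281 reads *in vivo* and 421, 287 and 147 *in vitro* (-0.28, SE 0.45), and *Prdx5*, a peroxiredoxin of mitochondria and peroxisomes, 544, 786 and 853 and 605, 610 and 662 (-0.29, SE 0.33). *Hmox2*, the constitutive heme oxygenase, had 17, 32 and 10 and 0, 27 and 47 reads, and *Cat*, catalase, 8, 30 and 0 and 24, 28 and 0, so both varied more within than between the groups.

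**Figure D3:**
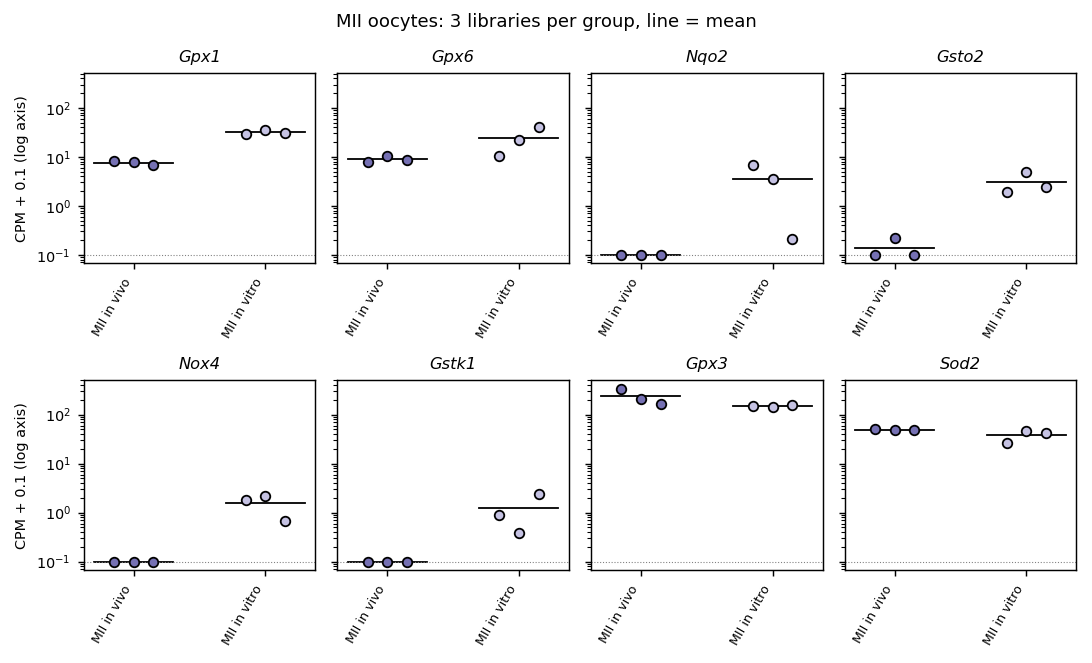
CPM + 0.1 on a log axis for 8 genes in the MII libraries (points, 3 per group; horizontal line, mean; dotted line, 0 reads). *Gpx1* sits at 7.43 ± 0.743 CPM *in vivo* and 31.9 ± 2.89 CPM *in vitro*, *Nqo2*, *Nox4* and *Gstk1* have no read *in vivo*, and *Gpx3* and *Sod2* are lower *in vitro*.

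**Figure D4:**
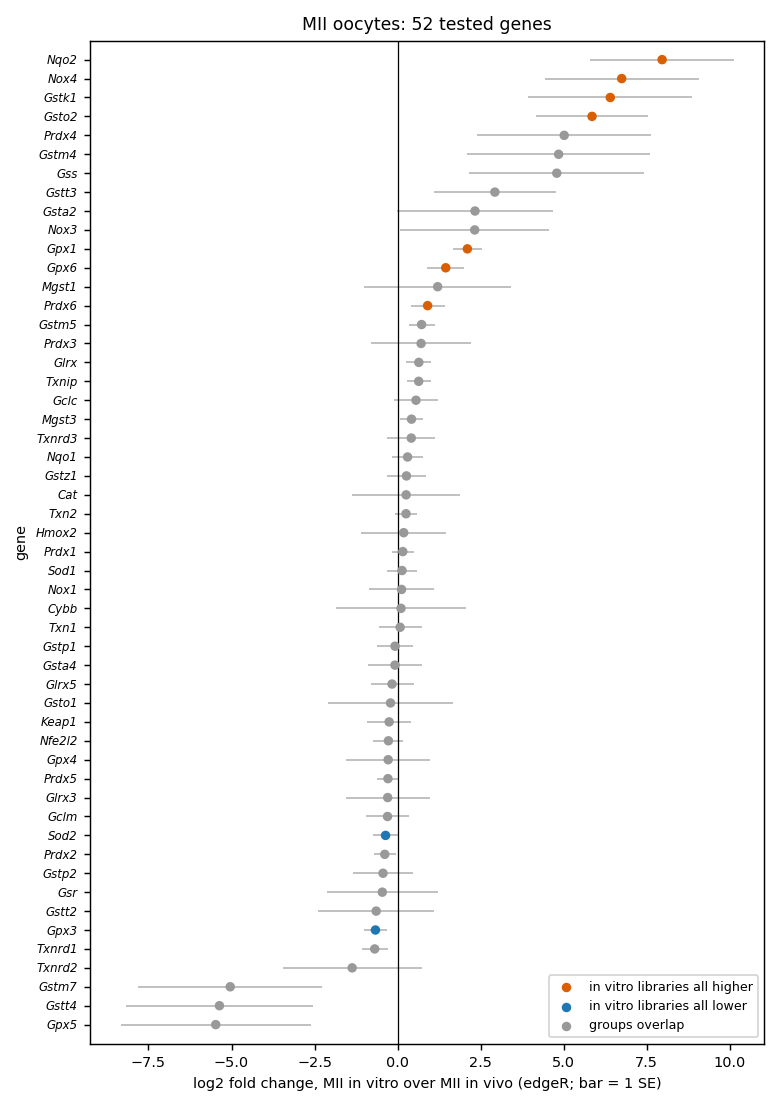
log2 fold change of *in vitro* over *in vivo* MII oocytes for the 52 genes tested (points, with bars of 1 SE derived from the edgeR test), coloured where the libraries of the groups do not overlap. The 7 orange genes are higher and the 2 blue genes (*Gpx3*, *Sod2*) lower *in vitro*, and the bars are longest for genes with few reads.

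At the primordial stage none of the 55 redox genes tested was called *in vitro* against *in vivo* by edgeR, DESeq2 or limma-voom. For 23 of the 55 DESeq2 gave no adjusted p, so they could not be called by it. The call rate over all 15317 genes was 0.0326% by edgeR and 5.3% by DESeq2. At an unadjusted p under 0.05 no redox gene was higher and 3 were lower (*Gstm4*, *Gstp2* and *Gpx8*), against 4.51% and 7.23% of all genes (11.7% in either direction). The groups did not overlap in 3 genes, 1 higher and 2 lower, against 2.04% and 4.55% (6.59% in either direction). The median log2 fold change was 0.00 for the redox genes and 0 for all genes.

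*Sod1* was the gene whose *in vitro* libraries were all higher: 692, 769 and 1276 reads *in vivo* and 2035, 2959 and 1777 *in vitro*, or 41.6 ± 21.6 and 114 ± 30.5 CPM (SD, n = 3). The log2 fold change was 1.45 (SE 2.74, edgeR adjusted p = 0.954). *Scaf4*, on the opposite strand at the *Sod1* locus, had 5946, 1254 and 1245 reads *in vivo* and 25, 24 and 4888 *in vitro*. *Txn2*, the mitochondrial thioredoxin, was lower, with 1674, 771 and 1672 reads *in vivo* and 50, 2 and 18 *in vitro* (log2 fold change -5.37, SE 3.60, edgeR adjusted p = 0.509). *Glrx3*, a glutaredoxin of iron and sulfur cluster handling, had 3296, 1644 and 15359 reads *in vivo* and 598, 3 and 851 *in vitro* (log2 fold change -3.57, SE 2.38, edgeR adjusted p = 0.509), and -1.85 without *in vivo* replicate 3. In both genes each *in vitro* library was below each *in vivo* library.

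Several mu class transferases had most of their reads in a single library of a group. *Gstm4* had 8360, 0 and 0 reads in the primordial *in vivo* libraries and none in the *in vitro* libraries, so it was at least 759-fold lower *in vitro* over the group (edgeR adjusted p = 0.359), which rested on *in vivo* replicate 1 alone: without it, no read was left in either group. *Gstm7* had 19637, 0 and 0 reads *in vivo* and 0, 0 and 10491 *in vitro*, and *Gstm6* 236, 7746 and 0 reads *in vivo* and 4125, 0 and 36 *in vitro*. *Gstm1* had 78914, 15933 and 13064 reads *in vivo* and 104, 1092 and 13009 *in vitro*, and the groups overlapped when scaled (log2 fold change -2.78, SE 1.66). *Gstm2* had 20156, 10924 and 15 reads *in vivo* and 26116, 17184 and 40887 *in vitro*. The mu class genes lie side by side on chromosome 3 between 107895821 and 108044894, and some share sequence. Of their 50-base stretches, 18.9% in *Gstm1*, 28.8% in *Gstm3*, 5.97% in *Gstm6* and 5.65% in *Gstm2* occur in other genes. Each of these shared some with another mu class gene. In *Gstm7* the share was 0.532%, with no other redox gene, and the stretches of *Gstm4* occur in no other gene. How reads with several matches were counted is not given in the sources used here.

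*Prdx4*, present in the LCM libraries at up to 2395 reads, had 2, 406 and 0 reads in primordial *in vivo* and 783, 0 and 61 in primordial *in vitro*. *Prdx1* had 197 ± 130 and 350 ± 150 CPM (SD, n = 3; log2 fold change 0.83, SE 1.90). *Nox4* had 6 reads in primordial *in vivo* replicate 2 and none in the other 11 LCM libraries. *Nqo2* had 1, 2 and 1 reads *in vivo* and 0, 0 and 3 *in vitro*, all at or under the floor. The granulosa markers summed to 58.8 to 821 TPM in primordial *in vivo* and 328 to 2193 TPM in primordial *in vitro*, and their part in these values was not tested.

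At the primary stage none of the 55 genes was called by edgeR, DESeq2 or limma-voom, with call rates over all genes of 0% by edgeR and 1.66% by DESeq2. For 25 of the 55 DESeq2 gave no adjusted p, so they could not be called by it. At an unadjusted p under 0.05, 3 redox genes were higher (*Txnrd2*, *Gstm6* and *Gpx6*) and 0 lower, against 6.94% and 2.72% of all genes (9.66% in either direction). *Txnrd2* had 121, 0 and 9 reads *in vitro* and *Gpx6* 10, 0 and 67, and neither had a read *in vivo*, so in both most reads came from 1 library. The groups did not overlap in 5 genes, 3 higher and 2 lower, against 8.74% and 1.25% (9.99% in either direction). The median log2 fold change of the redox genes was 0.17 (0.03 with genes absent from a group set at their limit) and that of all genes 0.44. The latter was 0.17 with the size factors of DESeq2 and 0.72 with library size alone, so directions at this stage are relative to the scaling.

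*Hmox1*, the inducible heme oxygenase, had 0, 1 and 0 reads in primary *in vivo* and 12, 9 and 418 *in vitro*. The ratio of pooled reads was 308 (95% exact counting interval 55.0 to 12200, edgeR adjusted p = 0.519). That interval covers counting error only and leaves out the spread between libraries. *In vitro* replicate 3 held 418 of the reads, and without it the log2 fold change fell from 7.86 to 4.31. *Gstm6* had no read *in vivo* and 10, 100 and 19 *in vitro*, at least 11.4-fold higher (edgeR adjusted p = 0.444). *Txn1*, the cytosolic thioredoxin, had 0, 13 and 0 reads *in vivo* and 42, 78 and 57 *in vitro* (log2 fold change 3.58, SE 3.21, edgeR adjusted p = 0.810), and all its *in vivo* reads came from replicate 2. The 3 genes were higher in each *in vitro* library, and 2 genes were lower in each after scaling. Of these 2, *Sod1* overlapped between the groups in TPM, at 169 to 341 *in vivo* and 118 to 198 *in vitro*. *Gpx4* had 3427, 1518 and 1413 reads *in vivo* and 1264, 123 and 841 *in vitro* (log2 fold change -2.22, SE 2.95, edgeR adjusted p = 0.942). *Gpx4-ps2*, which shares sequence with it, had 0, 0 and 542 reads *in vivo* and 78, 0 and 143 *in vitro*. *Sod1* had 759, 1607 and 1100 reads *in vivo* and 885, 574 and 1005 *in vitro*, or 56.2 ± 10.6 and 28.2 ± 3.23 CPM (SD, n = 3; log2 fold change -0.99, SE 2.71, edgeR adjusted p = 1).

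*Gstm4* had no read in primary *in vivo* and 1, 0 and 14 *in vitro*. *Prdx4* had 30, 2395 and 0 reads *in vivo* and 1390, 0 and 731 *in vitro*, with overlap. *Nqo2* had 0, 12 and 0 and 28, 7 and 6 reads. *Gclm* had 10663, 1908 and 3662 reads *in vivo* and 189, 4556 and 2741 *in vitro*, and *Gclc*, the catalytic subunit of the same enzyme, 2469, 3560 and 0 and 2714, 2 and 3229. The granulosa markers summed to 214 to 768 TPM in primary *in vivo* and 1101 to 2222 TPM in primary *in vitro*. The 6 blood and immune markers summed to 1157 to 7503 and 0.502 to 174 TPM. *In vivo* this was nearly all from the hemoglobin genes *Hba-a1* and *Hbb-bs*. Of the immune markers, *Ptprc* and *Adgre1* had no read in either group. *Cd68* reached 0.327 TPM *in vivo* and 0.198 TPM *in vitro*, and *Lyz2* 0.104 and 7.85 TPM. The part of all these markers in the results was not tested.

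The other abundant members overlapped between culture and *in vivo* at both LCM stages, and several had nearly all their reads in a single library of a group. *Cat* had 0, 276 and 43 reads in primordial *in vivo*, 0, 7380 and 2 in primordial *in vitro*, 19, 1512 and 1518 in primary *in vivo* and 1671, 1813 and 667 in primary *in vitro*. *Sod2* had 0, 2168 and 10, then 0, 1 and 1676, then 8414, 0 and 0, and then 1132, 259 and 1787 reads in the same order. In both genes primary *in vitro* was the one group with at least 259 reads in each of its libraries. *Gpx1* had 18, 120 and 1150 reads in primordial *in vivo*, 53, 8 and 3513 in primordial *in vitro*, 0, 1190 and 12 in primary *in vivo* and 1224, 907 and 468 in primary *in vitro*. Its log2 fold change *in vitro* was 1.42 (SE 2.98) at the primordial and 0.95 (SE 2.95) at the primary stage, with standard errors several times that of the MII comparison. *Nfe2l2* had 83, 1517 and 4261 reads in primordial *in vivo*, 1546, 0 and 132 in primordial *in vitro*, 74, 330 and 97 in primary *in vivo* and 638, 210 and 730 in primary *in vitro*.

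**Figure D5:**
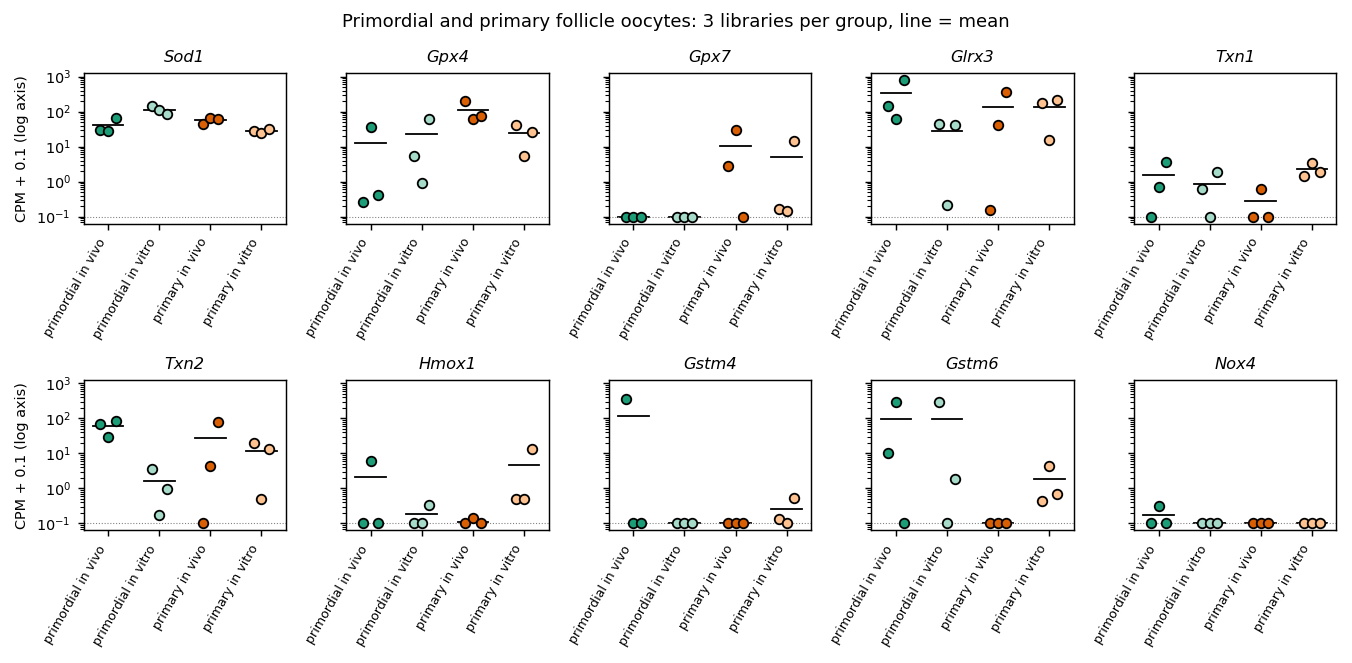
CPM + 0.1 on a log axis for 10 genes in the 4 LCM groups (points, 3 per group; horizontal line, mean; dotted line, 0 reads). *Sod1* has reads in every library. Its level is 41.6 ± 21.6 and 114 ± 30.5 CPM in primordial *in vivo* and *in vitro*. In primary *in vivo* and *in vitro* it is 56.2 ± 10.6 and 28.2 ± 3.23 CPM (SD). *Gstm4*, *Gstm6* and *Gpx7* range from 0 reads to high values within a group.

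The effect of culture at the primary stage minus that at the primordial stage was also tested (interaction). None of the 55 genes was called by edgeR, DESeq2 or limma-voom (call rates over all genes 0.104% by edgeR and 3.62% by DESeq2). For 20 of the 55 DESeq2 gave no adjusted p, so they could not be called by it. At an unadjusted p under 0.05, 4 genes had a positive interaction (*Gstm4*, *Gstk1*, *Hmox1* and *Gstm1*) and 0 a negative one, against 8.55% and 2.98% of all genes (11.5% in either direction). *Gstk1* had 0, 2 and 4 reads in primordial *in vivo*, 0, 25 and 0 in primary *in vitro* and none in the other LCM groups. The median of all genes in this contrast was 0.91 on the log2 scale, or 0.61 with the size factors of DESeq2 and 1.28 with library size alone. After scaling, *Sod1* was higher *in vitro* in every library at the primordial stage and lower in every library at the primary stage. Its interaction was -2.45 on the log2 scale (SE 3.86, edgeR adjusted p = 1).

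From primordial to primary follicles *in vivo*, none of the 55 genes was called by edgeR or limma-voom, with a call rate of 0.0522% over all genes by edgeR. DESeq2 called 1 (*Gpx7*), with a rate of 3.64%, and gave no adjusted p for 22 of the 55. At an unadjusted p under 0.05, 1 gene was higher in primary follicles (*Gpx7*) and 4 lower (*Gstm6*, *Gstm4*, *Gstm7* and *Gstm1*), against 5.93% and 5.25% of all genes (11.2% in either direction). The groups did not overlap in 2 genes, 1 in each direction, against 2.36% and 4.02% (6.39% in either direction). *Gpx7*, a glutathione peroxidase of the endoplasmic reticulum, had no read in primordial oocytes and 45, 728 and 0 in primary oocytes, at least 80.4-fold higher (edgeR adjusted p = 0.380, DESeq2 adjusted p = 0.0380). Replicate 2 held 91.8% of its summed CPM in primary oocytes and replicate 3 had no read, so this limit rests mainly on 1 library. *Gstm1* was lower in each primary library, with 212, 6697 and 989 reads against 78914, 15933 and 13064, or 112 ± 138 CPM against 1552 ± 1586 CPM (SD, n = 3). Its log2 fold change was -3.80 (SE 1.74, edgeR adjusted p = 0.399) and -2.51 without primordial *in vivo* replicate 1. *Gpx4* was higher in each primary library, with 4, 996 and 6 reads in primordial and 3427, 1518 and 1413 in primary oocytes (log2 fold change 3.17, SE 3.07, edgeR adjusted p = 0.738), and 8.83 without primordial *in vivo* replicate 2.

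Between the cultured groups none of the 55 genes was called by edgeR, DESeq2 or limma-voom (call rates over all genes 0% by edgeR and 2.94% by DESeq2). For 23 of the 55 DESeq2 gave no adjusted p, so they could not be called by it. At an unadjusted p under 0.05, 1 gene was higher (*Gpx7*) and 1 lower (*Gstm7*), against 9.21% and 1.71% of all genes (10.9% in either direction). The groups did not overlap in 7 genes, 6 higher in primary follicles and 1 lower, against 9.87% and 1.34% (11.2% in either direction). The median log2 fold change of all genes was 0.44 here, or 0.21 with the size factors of DESeq2 and 0.81 with library size alone. *Gpx7* had no read in the primordial *in vitro* libraries and 2, 1 and 470 in the primary *in vitro* libraries, so 1 library held nearly all reads. *Hmox1* had 0, 0 and 5 reads in primordial and 12, 9 and 418 in primary oocytes. *Txnrd3*, a thioredoxin reductase with a glutaredoxin domain, had 51, 0 and 0 and 202, 1222 and 534 reads (log2 fold change 4.37, SE 3.61, edgeR adjusted p = 0.711), with all its primordial reads in replicate 1. *Prdx6* had 0, 266 and 32 and 420, 2364 and 715 reads, *Mgst1* 0, 1 and 1 and 2, 22 and 10, and *Nqo2* 0, 0 and 3 and 28, 7 and 6. *Sod1* was lower in each primary library (log2 fold change -2.01, SE 2.79, edgeR adjusted p = 0.939). The *in vivo* comparison shares no library with this one, while each stage comparison shares its groups with the culture comparisons above.

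A wider list of 58 genes of the same chemistry (NADPH supply and thiol transport, Nrf2 partners, oxidase subunits, methionine sulfoxide reductases, thioredoxin-like proteins and other protectors) had 55 in the TPM table. Of these 46 could be tested in MII oocytes, where edgeR called 0.35% of all genes. Among the 46, edgeR called 0 higher and 1 lower *in vitro*, the protein disulfide isomerase *Pdia6*. It had 3911, 3226 and 3330 reads *in vivo* and 1046, 1315 and 1014 *in vitro* (log2 fold change -1.74, SE 0.31, edgeR adjusted p = 0.0304), so the groups stood well apart. *P4hb*, another protein disulfide isomerase, had 5741, 3026 and 3102 reads *in vivo* and 1493, 1798 and 1696 *in vitro* (-1.36, SE 0.36, edgeR adjusted p = 0.184). *Chac2*, which degrades glutathione slowly, had 82, 39 and 60 reads *in vivo* and 279, 444 and 265 *in vitro* (2.33, SE 0.48, edgeR adjusted p = 0.0687). DESeq2 called all 3 of these genes and no other of the list, where it called 2.05% of all genes. In MII oocytes 3 genes of the list were higher and 3 lower at an unadjusted p under 0.05, where 5.99% and 4.18% of all genes were. In the LCM comparisons edgeR called none of the 50 tested, where it called 0% to 0.104% of all genes. At an unadjusted p under 0.05, 1 to 5 were higher and 0 to 5 lower, which 9.66% to 11.7% of all genes reached in either direction. DESeq2 called 4 at the primordial stage (*Me1*, *Sesn1*, *Pdia6* and *Rbx1*), where it called 5.3% of all genes. *Pdia6* was higher *in vitro* there, the other direction from MII oocytes. It had 230, 328 and 13 reads *in vivo* and 1526, 4048 and 1109 *in vitro* (log2 fold change 3.78, SE 3.18, edgeR adjusted p = 0.654). The edgeR log2 fold change was 7.31 for *Me1*, -8.11 for *Sesn1* and -8.23 for *Rbx1*. DESeq2 also called *Me1*, the malic enzyme that makes NADPH, between the stages *in vivo* and in the interaction, where its rates were 3.64% and 3.62%. *Me1* had 5, 1 and 0 reads in primordial *in vivo*, 6, 20 and 860 in primordial *in vitro*, 2901, 279 and 2647 in primary *in vivo* and 2294, 2535 and 1866 in primary *in vitro*.

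The core of the antioxidant response element, the site through which Nrf2 acts, was searched as TGACNNNGC on both strands from 250 bases before to 50 bases after the start of each gene (RefSeq, GRCm38.p6). It was found in 10 of the 60 redox genes with a promoter in the table (16.7%) and in 14% of all 27025 genes with one. The 10 were *Gclm*, *Gsta3*, *Gstm5*, *Gstm7*, *Mgst1*, *Nfe2l2*, *Prdx1*, *Sod1*, *Srxn1* and *Txnrd1*. A match is a description of the letters in this window.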

How the data were processed

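The symbol rule uses no measured value, but the members and gene lists were chosen with earlier results of these data known. Per the labels and the study's methods, the authors trimmed reads with Trim Galore 0.4.1, aligned them with TopHat2 (mm10) and assigned them to genes with featureCounts. The deposited counts were not normalized, and the authors also deposited TPM values for 28252 genes, which were used for levels between genes. Reads were not processed again.

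Counts were tested with edgeR 4.0.16 (R 4.3.3) by the robust quasi-likelihood test after TMM scaling over genes with at least 10 reads in total, in one model of the 12 LCM libraries and one of the 6 MII libraries. Adjusted p-values are Benjamini-Hochberg values over all genes tested. CPM are TMM-scaled. A positive log2 fold change means more reads *in vitro*, or in primary follicles. Its SE was derived from the edgeR test, as the absolute log2 fold change over the square root of the F statistic. Such an SE is unreliable where a group has no read or the change is near none. Alternatives were DESeq2 1.42.0, limma-voom and limma on log2 TPM (limma 3.58.1), other scalings and filters, a replicate block and leaving out libraries. The edgeR fits were also run on simulated counts, with a set spread smaller than that fitted to these libraries, and far smaller for LCM. How the fits behave at the spread of these data was not tested in that way. Coordinates, transcripts and overlapping genes come from GENCODE M21, matched by identifier. Named were the study's *Gstm4*, *Gstm6*, *Nox4*, *Nqo2* and *Prdx4*, the 3 most abundant genes of each role class, the 5 non-overlapping genes with the smallest p in each comparison and genes with no library above 3 reads in one group and every library above 3 reads in the other. Other names were chosen after their values were seen. No 2 of the 153 library pairs were identical.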

Additional observations from a re-analysis of the deposited data

Results flagged for a closer look

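*Sod1* was flagged from its TMM-scaled CPM. In these the *in vitro* libraries were all higher than the *in vivo* libraries at the primordial stage and all lower at the primary stage. At the primary stage the groups overlapped in TPM, at 169 to 341 *in vivo* and 118 to 198 *in vitro*. The interaction, primary minus primordial, was -2.45 on the log2 scale (SE 3.86), with an adjusted p of 1 by edgeR and 0.369 by DESeq2, and so did not pass.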

How the results depend on the processing

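The number of redox genes called stayed at 0 under every alternative run in the primordial, primary and *in vitro* stage comparisons and in the interaction. Genes to which DESeq2 gave no adjusted p counted as not called. In MII oocytes DESeq2 called 3 (*Gpx1*, *Nqo2* and *Gsto2*), limma-voom 2 (*Gpx1* and *Gsto2*) and edgeR without a filter on low counts 2 (*Gpx1* and *Nqo2*). Leaving out one MII library at a time gave 0 to 1, the 1 being *Gpx1* without *in vivo* replicate 1 (adjusted p = 0.0393). Between the stages *in vivo* DESeq2 called 1 (*Gpx7*). The log2 fold change of *Gstm4* at the primordial stage ran from -15.04 to 0 when single libraries were left out, with 0 without *in vivo* replicate 1. The other differences recomputed for named genes kept their direction. Replicate numbers did not pair the libraries (correlations of same-numbered libraries -0.0269 to 0.0897, and in no comparison did every library correlate best with its own number). With a replicate block the number of redox genes called was 0 in all 6 comparisons, and over all genes 85 in MII oocytes, 1 at the primordial stage and 0 elsewhere. Over all genes the tools differed more: in MII oocytes edgeR called 60, DESeq2 351 and limma-voom 463, and at the primordial stage 5, 812 and 33. The cause was not tested. The edgeR biological coefficient of variation was 2.02 among LCM and 0.726 among MII libraries, and its part in the number of calls was not tested.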
